A study of Mus musculus with 9 samples.

Results

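The costimulatory branch of the tumour necrosis factor (TNF) superfamily was examined in the tumour-bearing mouse omentum through 10 genes, 5 receptors and their 5 ligands. The members were taken by name: Tnfrsf9 with Tnfsf9, Tnfrsf4 with Tnfsf4, Tnfrsf18 with Tnfsf18, Cd40 with Cd40lg, and Cd27 with Cd70. All 10 were found among the 55359 genes of the count table, and 8 of them had enough counts to be tested, while Tnfsf18 and Cd70 did not. C57BL/6 mice 7 to 10 weeks old received B16-OVA cells, a melanoma line carrying chicken ovalbumin, into the peritoneal cavity, and all groups share this tumour. On day 6 they were given saline (PBS), or OT-I cells (CD8 T cells with a transgenic receptor for an ovalbumin peptide), either into the peritoneal cavity (IP) or into a vein (IV). The T cells of both treated groups had been electroporated with mRNA coding for interleukin-12 (IL-12), and no group received T cells without that mRNA, so what the T cells do and what their IL-12 does cannot be told apart. The labels give no route for PBS. The omentum, a fatty fold of the abdominal lining with immune cell clusters, was taken 18 h later. Each group had 3 mice, and the labels number them 1, 2 and 3 for PBS, 2, 3 and 4 for IP, and 1, 2 and 4 for IV.

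These receptors sit mainly on lymphocytes or antigen-presenting cells and pass a survival and activation signal through TRAF adaptor proteins to NF-kappaB. 4-1BB (Tnfrsf9), OX40 (Tnfrsf4) and GITR (Tnfrsf18) are induced on T cells after antigen recognition, GITR and OX40 being present on regulatory T cells at rest, whereas CD27 is carried by naive T cells. CD40 works in the reverse direction: it is carried by B cells, dendritic cells and macrophages and is engaged by CD40 ligand (Cd40lg), which activated helper T cells display. The ligands 4-1BBL (Tnfsf9), OX40L (Tnfsf4), GITRL (Tnfsf18) and CD70 are shown mainly by activated antigen-presenting cells, and several also by endothelial or other tissue cells.

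Total counts ran from 25409924 to 44626843 in 8 libraries and came to 7379798 in IV 2, so that counts of low members are least precise there. Melanoma markers (5 genes) summed to 24293 to 27082 CPM (counts scaled to a common library size by TMM, which corrects for differences in composition) in PBS, 12811 to 14435 in IP and 17322 to 22377 in IV, and mesothelial and adipocyte markers were present in all 9 libraries. Pancreatic acinar markers (6 genes) summed to 13.0 to 19.5 CPM in PBS. In IP 2, 3 and 4 they summed to 144, 167 and 13627 CPM, and in IV 1, 2 and 4 to 17706, 3224 and 9.31 CPM. For each of the 6 genes, all IP libraries lay above all PBS libraries. RNA here comes from whole tissue, so fewer cells of a type and less RNA per cell cannot be told apart.

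Levels were compared between members as CPM per kilobase of exon. In PBS the highest member was the ligand gene Tnfsf9 with 4.57 ± 0.860 CPM per kilobase (SD, n = 3). It was followed by Tnfrsf18 (2.93 ± 0.890), Tnfrsf4 (2.18 ± 1.33), Cd27 (1.86 ± 0.697), Cd40 (1.76 ± 1.19) and Tnfrsf9 (1.64 ± 0.904), and the ranges of each neighbouring pair in this order overlapped. Cd40lg stood at 0.432 ± 0.188, its highest library just reaching the lowest of Tnfrsf9, and Cd70, Tnfsf4 and Tnfsf18 lay between 0.0454 and 0.0582, with ranges that overlapped. In IP the order was different at the top. Tnfrsf9 led with 38.1 ± 4.92 CPM per kilobase, and its range did not overlap that of any other member. Tnfrsf18 (12.8 ± 1.69), Cd40 (12.3 ± 0.468) and Tnfrsf4 (11.9 ± 1.95) followed with overlapping ranges, above Tnfsf9 (5.99 ± 0.983), Cd27 (4.57 ± 0.345) and Tnfsf4 (3.97 ± 0.916), whose neighbouring ranges overlapped. Cd40lg (0.895 ± 0.310), Cd70 (0.215 ± 0.0830) and Tnfsf18 (0.0762 ± 0.0760) stayed at the bottom. In IV the means of Cd40, Tnfrsf18, Cd27, Tnfrsf4, Tnfrsf9 and Tnfsf9 lay between 3.82 and 7.05, with neighbours that overlapped, and Cd40lg came next at 0.969 ± 0.602. The IV level of Tnfsf4 was 0.347 ± 0.0762, that of Tnfsf18 0.0345 ± 0.0352 and that of Cd70 0.00904 ± 0.0157. These per-kilobase levels use exon lengths of a mouse annotation other than the one the counts were made with.

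**Figure D1:**
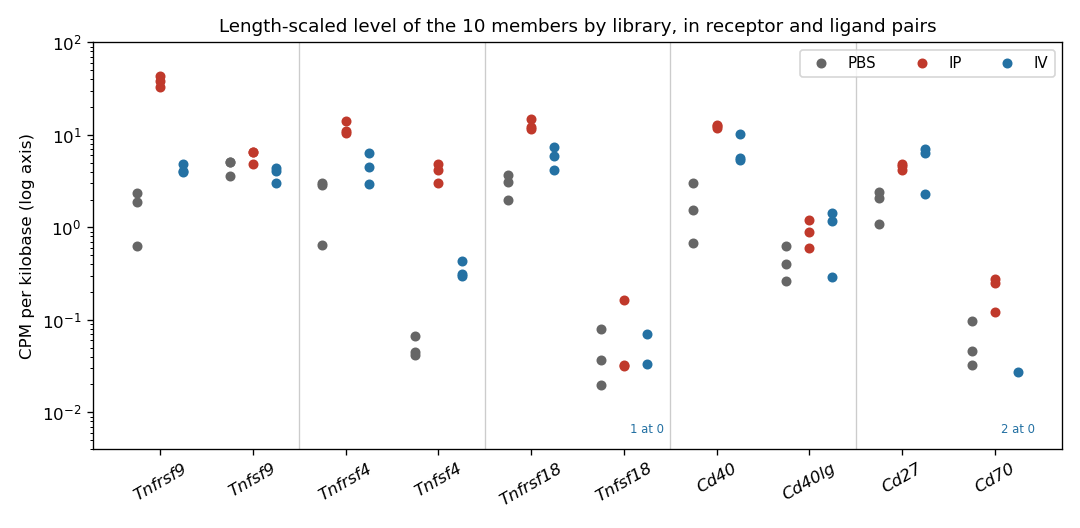
CPM per kilobase of exon (log axis) of the 10 members in each of the 9 libraries, 1 point per library, grouped by receptor and ligand pair and coloured by treatment. Values of 0 cannot be drawn on the log axis and are written as counts of libraries at 0. Tnfrsf9 in IP (33.2 to 43.0) lies above every other point.

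Tnfrsf9 encodes 4-1BB, a receptor induced on T cells by antigen and also found on natural killer and other activated cells. It measured 1.72, 5.18 and 6.48 CPM in PBS 1, 2 and 3, and 117, 103 and 90.3 CPM in IP 2, 3 and 4. In IV 1, 2 and 4 it measured 10.9, 13.1 and 11.2 CPM. The groups did not overlap, with IP highest and IV between IP and PBS. IP against PBS gave a log2 fold change of 4.53 ± 0.39 (SE; edgeR quasi-likelihood test, adjusted p = 2.999e-05), a 23.1-fold rise. IV against PBS gave 1.37 ± 0.36 (edgeR adjusted p = 0.0275), a call that was lost in 7 of 19 alternative settings, among them leaving out PBS 2, IV 1, IV 2 or IV 4. The difference between the routes, IP against IV, was 3.16 ± 0.37 (edgeR adjusted p = 0.000824).

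Its ligand gene Tnfsf9 passed no test. It measured 6.58, 6.49 and 4.61 CPM in PBS, 8.46, 8.47 and 6.27 CPM in IP and 5.64, 3.87 and 5.27 CPM in IV. PBS overlapped both treated groups, while IP and IV did not overlap. None of the 3 comparisons passed in edgeR, with log2 fold changes of 0.39 ± 0.23 for IP against PBS (adjusted p = 0.216), -0.23 ± 0.23 for IV against PBS (adjusted p = 0.536) and 0.63 ± 0.23 for IP against IV (adjusted p = 0.115). The exons of Tnfsf9 overlap those of Gm11110 on the opposite strand, and the sources used here do not say whether counting used strand.

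Tnfsf4, the gene of OX40L, made the largest relative change of the 8 tested members. It had 3, 2 and 6 counts in PBS 1, 2 and 3 (0.0819, 0.0768 and 0.122 CPM). In the IP libraries it had 268, 180 and 163 counts (8.83, 7.62 and 5.49 CPM), and in the IV libraries 15, 6 and 25 counts (0.546, 0.800 and 0.571 CPM). All 3 groups were separate, with IV between PBS and IP. The log2 fold change was 6.18 ± 0.36 for IP against PBS (edgeR adjusted p = 1.137e-05), 2.59 ± 0.39 for IV against PBS (edgeR adjusted p = 0.003) and 3.59 ± 0.31 for IP against IV (edgeR adjusted p = 0.000223). These 3 calls were kept in each of the 19 alternative settings, but the size of the folds against PBS rests on 11 counts over the 3 PBS libraries.

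Its receptor gene Tnfrsf4 (OX40) also rose in IP. It measured 0.874, 4.11 and 3.94 CPM in PBS, 19.3, 14.4 and 15.0 CPM in IP and 4.00, 8.67 and 6.21 CPM in IV. IP lay above both other groups, and IV 1 fell inside the PBS range. IP against PBS gave a log2 fold change of 2.45 ± 0.48 (edgeR adjusted p = 0.00265). IV against PBS (1.05 ± 0.47, edgeR adjusted p = 0.160) and IP against IV (1.40 ± 0.47, edgeR adjusted p = 0.0835) did not pass. With the mouse number as a block, IV against PBS passed (1.37, edgeR adjusted p = 0.0143). IP against IV passed in 4 of 19 alternatives. DESeq2 and limma voom were among these, as was the fit without PBS 1 (1.41, edgeR adjusted p = 0.011).

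Tnfrsf18 (GITR), whose gene neighbours Tnfrsf4 in the genome, followed the same order of groups. Its level was 3.00, 5.68 and 4.72 CPM in PBS, 22.4, 17.4 and 18.6 CPM in IP and 6.33, 11.2 and 8.93 CPM in IV, with no overlap between groups. The log2 fold change was 2.13 ± 0.27 for IP against PBS (edgeR adjusted p = 0.000184), 0.96 ± 0.27 for IV against PBS (edgeR adjusted p = 0.0343) and 1.16 ± 0.26 for IP against IV (edgeR adjusted p = 0.019). IV against PBS lost its call in 9 of 19 alternatives (adjusted p up to 0.127, without PBS 1), including without PBS 1, PBS 3, IP 2, IP 3, IP 4 or IV 2. IP against IV lost it in 5 (up to 0.109), including without IP 2, IP 3, IP 4 or IV 1. Exons of Tnfrsf18 overlap Gm16008 on the opposite strand. The ligand gene Tnfsf18 (GITRL) had 6, 2 and 2 counts in PBS, 2, 8 and 2 in IP and 4, 0 and 3 in IV, too few to be tested. With no filter on low counts its adjusted p in edgeR was 0.800, 0.993 and 0.767 in the 3 comparisons, so that no difference was detectable at this depth.

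The bases before the annotated starts of the called receptors are shown to give the sequence context of receptor genes called higher in IP. The RefSeq promoter table used here matched 5 of the 10 members, and Cd40 and Tnfsf4 were not among them. The 250 bases before each start of the 4 called members among them follow, 5′ to 3′ on the gene's strand, build GRCm38.p6, which differs from the mm39 build named by the submitters. Capitals mark matches, on either strand, to an NF-kappaB motif, an interferon-stimulated response element (GAAA, any 2 bases, GAAA), an interferon-gamma activated site (TTCNNNGAA) or an AP-1 motif (TGANTCA).
Tnfrsf9 first start, chr4:150919905-150920154, plus strand: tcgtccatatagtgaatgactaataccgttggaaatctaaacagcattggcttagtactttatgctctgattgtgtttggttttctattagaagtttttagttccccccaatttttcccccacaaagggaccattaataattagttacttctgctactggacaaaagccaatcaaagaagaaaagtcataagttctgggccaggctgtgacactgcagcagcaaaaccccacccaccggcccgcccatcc
Tnfrsf9 second start, chr4:150927749-150927998, plus strand: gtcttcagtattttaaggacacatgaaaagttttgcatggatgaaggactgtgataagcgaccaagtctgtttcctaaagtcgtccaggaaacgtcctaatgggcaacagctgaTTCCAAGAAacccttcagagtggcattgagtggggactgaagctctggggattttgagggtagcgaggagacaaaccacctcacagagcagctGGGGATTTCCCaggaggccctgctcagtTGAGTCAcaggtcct
Tnfrsf4, chr4:156013445-156013694, plus strand: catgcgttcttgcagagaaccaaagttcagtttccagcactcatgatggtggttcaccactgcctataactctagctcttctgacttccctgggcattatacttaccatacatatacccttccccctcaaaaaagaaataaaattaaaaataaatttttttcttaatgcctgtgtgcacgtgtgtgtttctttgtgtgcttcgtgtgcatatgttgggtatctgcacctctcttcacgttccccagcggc
Tnfrsf18, chr4:156026072-156026321, plus strand: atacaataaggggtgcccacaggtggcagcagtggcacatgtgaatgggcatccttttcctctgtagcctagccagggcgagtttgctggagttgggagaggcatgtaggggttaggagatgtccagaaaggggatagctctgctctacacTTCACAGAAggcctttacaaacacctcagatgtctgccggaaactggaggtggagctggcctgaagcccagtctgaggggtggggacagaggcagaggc
Cd27, chr6:125237028-125237277, minus strand: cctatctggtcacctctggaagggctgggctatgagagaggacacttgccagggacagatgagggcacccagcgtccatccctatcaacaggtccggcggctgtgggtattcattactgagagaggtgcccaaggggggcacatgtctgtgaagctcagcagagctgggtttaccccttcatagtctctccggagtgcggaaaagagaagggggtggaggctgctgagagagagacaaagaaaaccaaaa
The second start of Tnfrsf9 held a pair of NF-kappaB matches that overlap (GGGGATTTCC and GGGATTTCCC, between 43 and 33 bases before the start). The same window held an interferon-gamma activated site (TTCCAAGAA) and, nearest to the start, an AP-1 match (TGAGTCA, 15 to 9 bases before it). Tnfrsf18 held an interferon-gamma activated site match, TTCACAGAA, 99 to 91 bases before its start. No match was found in the windows of the first Tnfrsf9 start, of Tnfrsf4 or of Cd27, which says only that these letters are not there. Of 32851 RefSeq promoter windows of the same length, 7.25% held the NF-kappaB motif, 2.98% the interferon-stimulated response element, 7.02% the interferon-gamma activated site and 6.75% the AP-1 motif. The counts do not tell which start of Tnfrsf9 was used.

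Cd40, the receptor through which helper T cells activate antigen-presenting cells, rose after both routes. It measured 2.32, 5.30 and 10.4 CPM in PBS 1, 2 and 3, and 40.3, 43.5 and 42.1 CPM in IP. In IV 1, 2 and 4 it measured 19.0, 34.7 and 18.3 CPM. The PBS libraries spread widely, the IP libraries lay close together, and the groups did not overlap. The log2 fold change was 2.79 ± 0.44 for IP against PBS (edgeR adjusted p = 0.000799) and 1.97 ± 0.44 for IV against PBS (edgeR adjusted p = 0.0148). The second call was lost in 3 of 19 alternatives, namely without PBS 2 (adjusted p = 0.0792), without IV 2 (0.0581) and with no filter on low counts (0.122). IP against IV (0.83 ± 0.42, edgeR adjusted p = 0.253) did not pass.

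Its ligand gene Cd40lg stayed low and variable. It measured 0.328, 0.499 and 0.793 CPM in PBS, 1.51, 1.10 and 0.741 CPM in IP and 0.364, 1.47 and 1.80 CPM in IV, and all groups overlapped. The log2 fold change was 1.03 ± 0.57 for IP against PBS (edgeR adjusted p = 0.203), 1.13 ± 0.59 for IV against PBS (edgeR adjusted p = 0.220) and -0.10 ± 0.57 for IP against IV (edgeR adjusted p = 0.942). The last changed its sign in 5 of 19 alternatives.

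Cd27, carried by naive T cells and some B and natural killer cells, was the called member with the smallest fold in IP. It measured 2.51, 4.80 and 5.65 CPM in PBS and 11.4, 10.8 and 9.77 CPM in IP. In IV 1 it measured 5.38 CPM, inside the PBS range, and in IV 2 and IV 4 it measured 14.8 and 16.4 CPM, above every IP library. The log2 fold change was 1.30 ± 0.39 for IP against PBS (edgeR adjusted p = 0.0273) and 1.49 ± 0.40 for IV against PBS (edgeR adjusted p = 0.0303). The first call was lost in 7 of 19 alternatives (adjusted p up to 0.0967), including without PBS 1, PBS 2, IP 2, IP 3 or IP 4. The second was lost in 10 (up to 0.113), including without PBS 1, PBS 2, IP 2, IP 3, IV 2 or IV 4. IP against IV did not pass (-0.19 ± 0.39, edgeR adjusted p = 0.812), and its sign turned without IV 4 (0.14). Exons of Cd27 overlap the microRNA gene Mir8113. Its ligand gene Cd70 had 1, 1 and 4 counts in PBS, 7, 5 and 3 in IP and 0, 0 and 1 in IV, and was not tested. With no filter on low counts, its adjusted p in edgeR was 0.442, 0.563 and 0.219 for IP against PBS, IV against PBS and IP against IV.

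**Figure D2:**
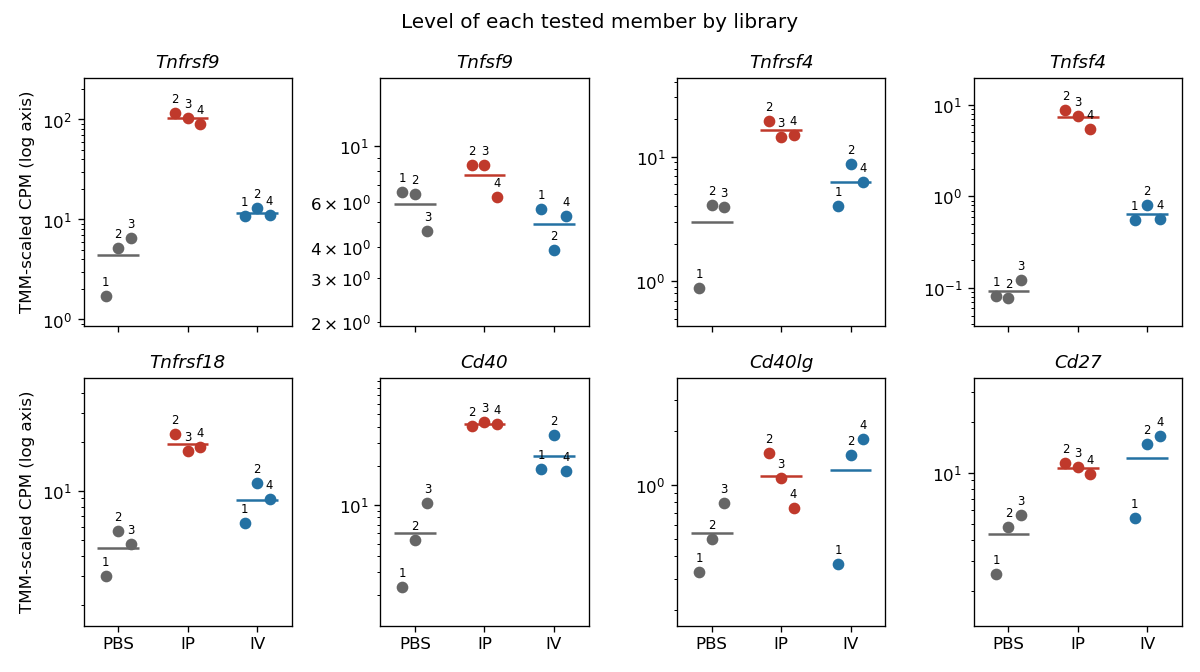
CPM (log axis) of the 8 tested members, 1 point per library with its mouse number above it, and a bar at the mean of each group of 3. Tnfrsf9 and Tnfsf4 show 3 separate groups, while Cd27 in IV 1 (5.38 CPM) sits with the PBS libraries.

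In all, 6 of the 8 tested members were called higher and 0 lower in IP against PBS. All were receptors but Tnfsf4, though 2 of the 5 ligand genes, Tnfsf18 and Cd70, had too few counts to be tested. Over all 17123 genes tested, 32.9% were called in that comparison, 18.7% higher and 14.2% lower. All IP libraries lay above all PBS libraries for 6 of the 8, as for 28.4% of all genes. In IV against PBS 5 members were called higher and 0 lower, where 16.1% of all genes were called, 10.4% higher and 5.66% lower. All IV libraries lay above all PBS libraries for 4 of the 8 and for 16.5% of all genes. The 5 called were Tnfrsf9, Tnfsf4, Tnfrsf18, Cd40 and Cd27, of which Tnfsf4 alone was called in each of the 19 alternatives. The number of members called higher in IV against PBS was 3 without PBS 1, IP 2, IP 3 or IV 4, 2 without PBS 2 and 1 without IV 2. Between the routes, Tnfrsf9, Tnfsf4 and Tnfrsf18 were called higher in IP and 0 members lower, where 10.4% of all genes were called, 5.93% higher and 4.47% lower. All IP libraries lay above all IV libraries for 6 of the 8 and for 17.9% of all genes. In none of the 3 comparisons was a member called lower by edgeR, DESeq2 or limma voom, and 0 were lower at an unadjusted edgeR p under 0.05. The comparisons of IP and of IV with PBS share the PBS libraries.

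**Figure D3:**
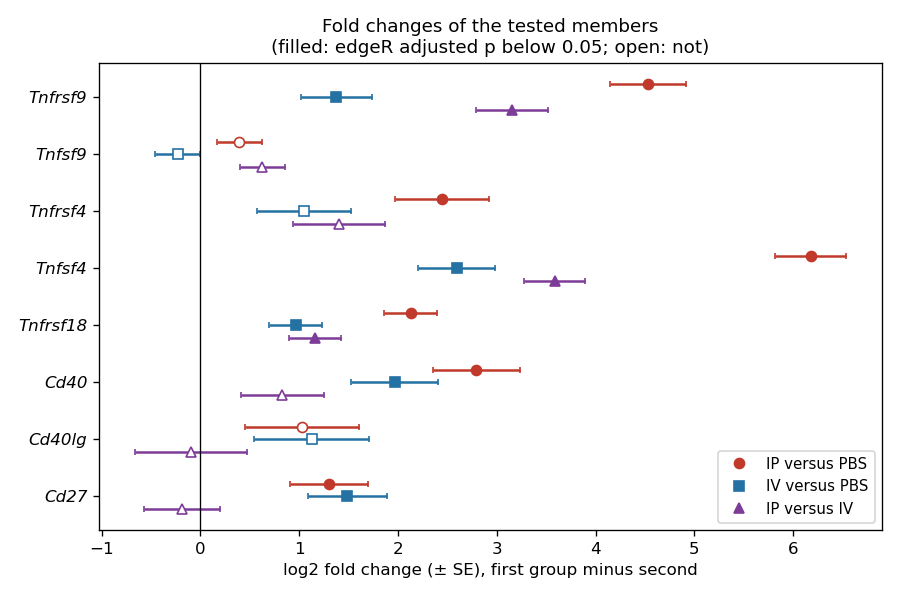
Log2 fold change with its SE of the 8 tested members in the 3 comparisons, filled where the edgeR adjusted p was below 0.05. Tnfsf4 (6.18) and Tnfrsf9 (4.53) lie farthest to the right for IP against PBS, and Tnfrsf9, Tnfsf4 and Tnfrsf18 are filled for IP against IV.

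T cell transcripts differed between the groups as well, so members that lymphocytes express were also set against the summed counts of Cd3d, Cd3e and Cd3g, which encode subunits of the T cell receptor complex. Those 3 genes together gave 13.0, 24.8 and 31.8 CPM in PBS, 91.2, 80.7 and 82.2 CPM in IP and 40.5, 108 and 86.7 CPM in IV 1, 2 and 4. Tnfrsf9 had 13.2, 20.9 and 20.4 counts per 100 CD3 subunit counts in PBS, and 128, 128 and 110 in IP. In IV it had 26.9, 12.1 and 12.9, which overlapped PBS. The mean log2 ratio was 2.77 higher in IP than in PBS and 2.91 higher in IP than in IV (exact permutation test, two-sided, p = 0.10 for each, the smallest that 3 against 3 allows, adjusted p = 0.20 over 18 comparisons). Between IV and PBS it differed by -0.15 (exact p = 0.80, adjusted p = 0.80), and this difference took the other sign with 7 T cell genes as the denominator (0.0057) and without IV 2 or IV 4.

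Between IP and PBS the differences of the other members were smaller on this scale. Tnfrsf4 had 6.72, 16.6 and 12.4 counts per 100 in PBS, 21.1, 17.8 and 18.3 in IP and 9.88, 8.01 and 7.16 in IV. IP lay above PBS by 0.76 and above IV by 1.19 in mean log2 ratio, without overlap (exact p = 0.10, adjusted p = 0.20 for each), and IV differed from PBS by -0.43 with overlap (exact p = 0.40, adjusted p = 0.51). Tnfrsf18 had 23.1, 22.9 and 14.8 counts per 100 in PBS and 24.5, 21.6 and 22.6 in IP, which overlapped (difference 0.20, exact p = 0.70, adjusted p = 0.74). In IV it had 15.6, 10.4 and 10.3, below all IP libraries (difference of IP and IV 0.95, exact p = 0.10, adjusted p = 0.20), while IV and PBS overlapped (difference -0.75, exact p = 0.20, adjusted p = 0.28). Cd27 had 19.3, 19.4 and 17.8 counts per 100 in PBS, more than the 12.45, 13.4 and 11.9 in IP (difference of IP and PBS -0.58, exact p = 0.10, adjusted p = 0.20), and 13.3, 13.7 and 19.0 in IV (difference of IV and PBS -0.32, exact p = 0.20, adjusted p = 0.28). Cd40lg likewise had 2.52, 2.02 and 2.49 in PBS and 1.66, 1.36 and 0.902 in IP (difference -0.89, exact p = 0.10, adjusted p = 0.20), with 0.898, 1.36 and 2.08 in IV (difference of IV and PBS -0.77, exact p = 0.20, adjusted p = 0.28). Cd4, which marks helper T cells, the main source of Cd40lg, and which was named after its values were seen, measured 6.20, 8.29 and 10.98 CPM in PBS and 5.14, 3.68 and 4.55 CPM in IP, without overlap (log2 fold change -0.93 ± 0.41, edgeR adjusted p = 0.109). In IV it measured 7.09, 22.4 and 25.9 CPM, and it was called lower in IP than in IV (-2.04 ± 0.42, edgeR adjusted p = 0.0121). Its part in the Cd40lg ratio was not tested. Cd70 had at most 0.262 counts per 100 in any library, and its log2 ratio in IV differed from PBS by -2.53 and its ratio in IP above IV by 2.23 (exact p = 0.10, adjusted p = 0.20 for each), both resting on 1 count over the 3 IV libraries.

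**Figure D4:**
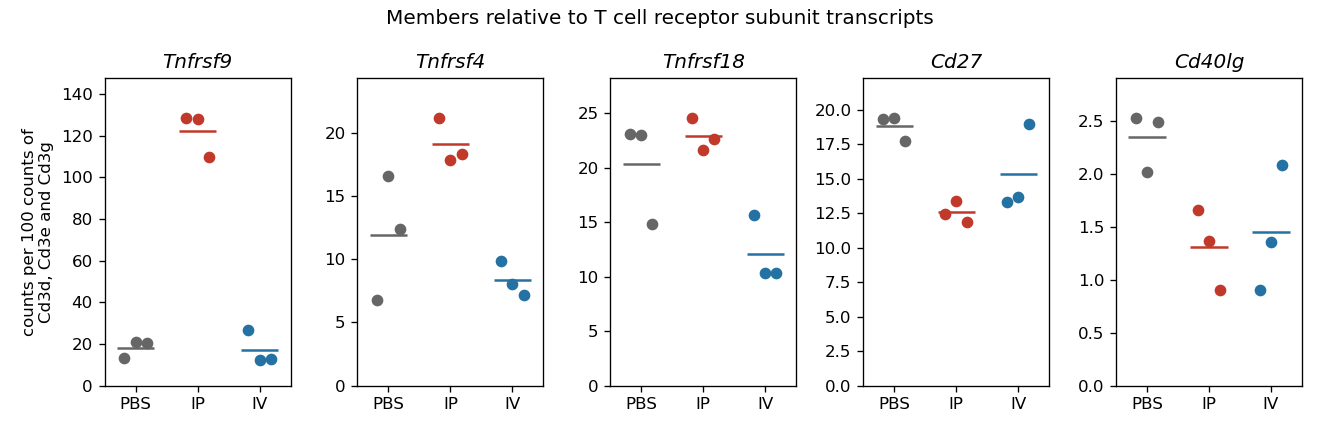
Counts of 5 members per 100 counts of Cd3d, Cd3e and Cd3g, 1 point per library with the group mean as a bar, each panel on its own linear axis from 0. Tnfrsf9 in IP (110 to 128) stands above PBS and IV (12.1 to 26.9), while Cd27 and Cd40lg in IP lie below PBS.

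In IP the count of receptor for each count of ligand was higher than in PBS for 4-1BB and lower for OX40. Tnfrsf9 had 0.263, 0.799 and 1.40 counts for each count of Tnfsf9 in PBS, 13.8, 12.2 and 14.4 in IP and 1.93, 3.34 and 2.12 in IV. All IV libraries lay above PBS and below IP. Tnfrsf4 had 9.29, 43.0 and 29.9 counts for each count of Tnfsf4 in PBS, 2.18, 1.88 and 2.73 in IP and 7.13, 10.1 and 10.7 in IV. Here IP was below both other groups, and IV overlapped PBS. The PBS ratios rest on only 3, 2 and 6 counts of Tnfsf4, and that of IV 2 on 6, so their size is uncertain. Cd40 had 6.84, 10.3 and 12.9 counts for each count of Cd40lg in PBS, 26.3, 38.8 and 55.6 in IP and 49.9, 22.7 and 10.1 in IV, the last library falling inside the PBS range. Each ratio has 0.5 added to both counts, is uncorrected for gene length and was not tested.

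**Figure D5:**
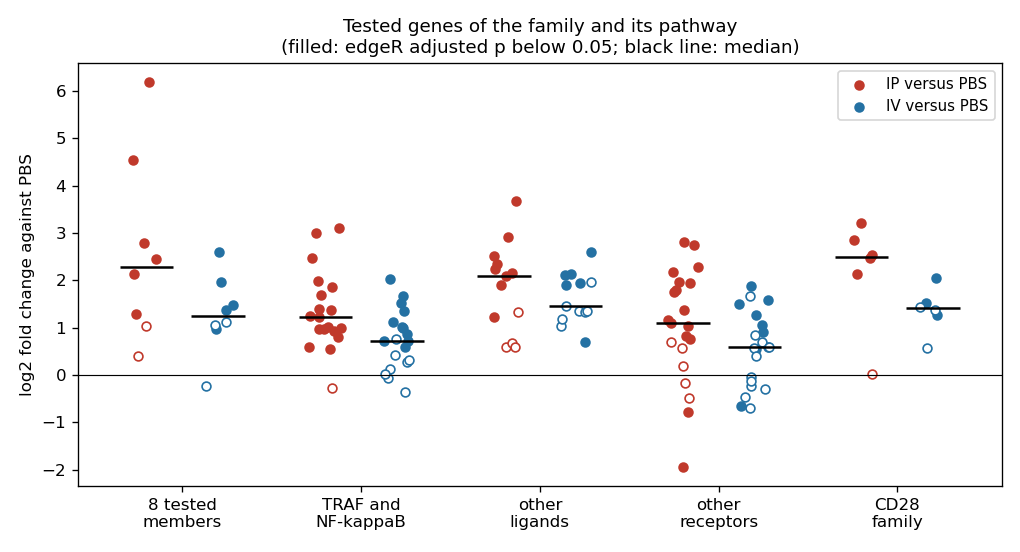
Log2 fold change against PBS of the tested genes of 5 lists, IP in red and IV in blue, filled where the edgeR adjusted p was below 0.05, with the median as a black line. Of the 19 TRAF and NF-kappaB genes, 18 are filled for IP and 11 for IV.

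Most genes of a TRAF and NF-kappaB list rose in IP, and whether the members had a part in this was not tested. Of all genes tested, 18.7% were called higher in IP against PBS, 10.4% in IV against PBS and 5.93% in IP against IV. Of 19 TRAF and NF-kappaB pathway genes, 18 were called higher and 0 lower in IP against PBS (edgeR, median log2 fold change 1.23, against 0.02 for all genes tested). In IV against PBS 11 were called higher and 0 lower (median 0.71, all genes 0.04), and in IP against IV 7 and 0 (median 0.54, all genes -0.02). The smallest p-values were those of Bcl2a1b and Bcl2a1d, survival genes of the Bcl2 family that are near-identical copies and whose counts are therefore uncertain, Bcl2l1, which encodes the survival protein Bcl-xL, and Nfkbia, the inhibitor that NF-kappaB itself induces. Bcl2a1b had a mean of 3.75 ± 1.32 CPM (SD, n = 3) in PBS and of 32.3 ± 2.25 CPM in IP, a log2 fold change of 3.10 ± 0.27. Bcl2l1 averaged 88.5 ± 7.04 CPM in PBS and 229 ± 35.0 CPM in IP (1.37 ± 0.14). Its IV mean of 89.8 ± 8.63 CPM was near that of PBS (0.02 ± 0.14, edgeR adjusted p = 0.936). Nfkbia averaged 47.0 ± 10.6 CPM in PBS and 170 ± 27.5 CPM in IP (1.86 ± 0.21). Traf1 and Traf3 were picked out after their values were seen. Traf1, an adaptor that binds 4-1BB, had a mean of 11.3 ± 4.72 CPM in PBS against 44.8 ± 4.37 CPM in IP and 32.7 ± 12.9 CPM in IV, a rise of 1.99 ± 0.35 in IP (edgeR adjusted p = 0.00147) and 1.52 ± 0.35 in IV (edgeR adjusted p = 0.0167). Traf3, which restrains the alternative NF-kappaB pathway, was the gene not called in IP (-0.27 ± 0.18, edgeR adjusted p = 0.285). Without IP 4 and IV 1, 18 of the 19 were again called higher in IP against PBS, 9 in IV against PBS and 4 in IP against IV.

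Other TNF superfamily ligands and receptors were measured in the same fit. Over all genes tested, 18.7% were called higher and 14.2% lower in IP against PBS. These shares were 10.4% and 5.66% in IV against PBS, and 5.93% and 4.47% in IP against IV. The all-gene median log2 fold changes were 0.02, 0.04 and -0.02 in that order. In lists this short, 1 or 2 genes called lower can lie near those shares and are not read as a change of the family. Of 13 other ligand genes, 9 were called higher and 0 lower in IP against PBS (median log2 fold change 2.09), 6 and 0 in IV against PBS (1.45), and 0 and 1 in IP against IV (0.34). Those with the smallest p-values were the death ligand gene Tnfsf10 (TRAIL; 2.91 ± 0.41), Tnf itself (3.67 ± 0.58), Tnfsf12 (TWEAK; 1.23 ± 0.21) and Tnfsf11 (RANKL; 2.52 ± 0.46), with edgeR adjusted p-values of at most 0.0018. The PBS mean of Tnf was 1.13 ± 1.15 CPM, the IV mean 5.21 ± 1.58 CPM and the IP mean 15.0 ± 0.280 CPM. The gene called lower in IP than in IV was Ltb, lymphotoxin beta of lymphoid tissue, named after its values were seen, with means of 11.9 ± 3.77 CPM (PBS), 17.9 ± 2.92 CPM (IP) and 46.6 ± 26.9 CPM (IV; IP against IV -1.36 ± 0.38, edgeR adjusted p = 0.0485). In that comparison limma voom called 2 other ligand genes higher and 0 lower, so that the Ltb call was lost, and DESeq2 called 1 higher and 1 lower. Of 23 other receptor genes 21 were tested, of which 14 were called higher and 2 lower in IP against PBS (median 1.11), 7 and 1 in IV against PBS (0.59) and 8 and 2 in IP against IV (0.70). The leading ones were the decoy receptor gene Tnfrsf23 (2.80 ± 0.25), the death receptor gene Fas (2.74 ± 0.25), the TNF receptor gene Tnfrsf1a (1.11 ± 0.14) and the TWEAK receptor gene Tnfrsf12a (1.94 ± 0.28), with edgeR adjusted p-values of at most 0.000429. Tnfrsf22, a close relative of Tnfrsf23 with which reads may be shared, was called lower (-0.78 ± 0.17, edgeR adjusted p = 0.0053), as was Ngfr, the neurotrophin receptor gene that melanoma cells can carry (-1.94 ± 0.51, edgeR adjusted p = 0.0136). Both were named after their values were seen. Without IP 4 and IV 1, 14 other receptor genes were called higher and 2 lower in IP against PBS, 3 and 0 in IV against PBS, and 6 and 2 in IP against IV. In the same setting 9 other ligand genes were called higher and 0 lower in IP against PBS, 5 and 0 in IV against PBS, and 0 and 1 in IP against IV.

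Costimulation through the CD28 family was measured with 6 genes. Of all genes tested, 18.7% were called higher in IP against PBS, 10.4% in IV against PBS and 5.93% in IP against IV. Of these, 5 were called higher and 0 lower in IP against PBS (median log2 fold change 2.50), 3 and 0 in IV against PBS (1.41) and 2 and 0 in IP against IV (1.05). Cd86, a CD28 ligand of antigen-presenting cells, had means of 77.4 ± 1.64 CPM (IP), 34.9 ± 8.54 CPM (IV) and 8.38 ± 3.29 CPM (PBS; IP against PBS 3.20 ± 0.28, edgeR adjusted p = 3.281e-05). Cd80, the other CD28 ligand, averaged 26.0 ± 3.35, 8.81 ± 3.33 and 3.58 ± 0.526 CPM in the same order (2.86 ± 0.26, edgeR adjusted p = 3.533e-05). Cd28 rose by 2.46 ± 0.44 and Icos by 2.53 ± 0.47 in IP. Icosl, the ligand of Icos and named after its value was seen, was not called in IP against PBS (0.02 ± 0.22, edgeR adjusted p = 0.955). Its mean was highest in IV, with 24.8 ± 8.71 CPM against 16.8 ± 1.07 CPM in IP and 16.5 ± 2.05 CPM in PBS, and IP against IV gave -0.55 ± 0.23 (edgeR adjusted p = 0.156). Without IP 4 and IV 1 the calls were 5 higher in IP against PBS, 6 in IV against PBS and 1 in IP against IV.

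Markers of the cells that can carry these genes differed between the groups for some cell types. For scale, 18.7% of all genes tested were called higher and 14.2% lower in IP against PBS. In IV against PBS the shares were 10.4% and 5.66%. In lists this short, 1 or 2 calls can lie near those shares and are not read as a change of that cell type. Of 10 T cell markers, 9 were called higher and 0 lower in IP against PBS and 6 and 0 in IV against PBS, the gene not called in IP being Cd4. Without IP 4 and IV 1, 1 T cell marker was called lower in IP against PBS. Their summed level was 44.4 to 108 CPM in PBS, 247 to 280.5 in IP and 108 to 292 in IV, with no marker at 0 in any library. IV 1 had the lowest sum among the treated libraries. It also had the lowest level of Cd27, Cd40lg, Tnfrsf4, Tnfrsf18, Tnfrsf9 and Tnfsf4 among them, but not of Cd40 or Tnfsf9. Of 6 B cell markers, 0 were called in IP against PBS by edgeR, DESeq2 or limma voom (0 at an unadjusted edgeR p under 0.05), and all 6 were called higher in IV against PBS. They summed to 55.4 to 67.1 CPM in PBS and 41.5 to 67.9 in IP, and to 131 in IV 1, 486 in IV 2 and 198 in IV 4. Of the IV libraries, IV 2 had the highest Cd40 level (34.7 CPM), which was below every IP library (40.3 to 43.5 CPM). Of 6 dendritic cell markers, 2 were called higher and 1 lower in IP against PBS and 3 and 0 in IV against PBS, with sums of 17.7 to 36.0 CPM in PBS, 60.0 to 75.7 in IP and 36.2 to 76.4 in IV. Of 7 macrophage and monocyte markers, 5 were called higher and 1 lower in IP against PBS, and 4 and 0 in IV against PBS, with sums of 308 to 523 CPM in PBS, 941 to 969 in IP and 676 to 723 in IV. Of 4 regulatory T cell markers, 2 were called higher and 0 lower in IP against PBS and 2 and 0 in IV against PBS, with sums of 10.2 to 20.5 CPM in PBS, 107 to 131 in IP and 24.6 to 49.3 in IV. Most of the sum in IP was Il2ra, which activated T cells also express (96.9 ± 12.3 CPM in IP and 3.69 ± 2.95 CPM in PBS). Foxp3, the defining one, had means of 2.10 ± 1.25 CPM in PBS and 2.20 ± 0.451 CPM in IP (0.05 ± 0.50, edgeR adjusted p = 0.946), and measured 2.47, 4.94 and 8.13 CPM in IV 1, 2 and 4 (IV against PBS 1.30 ± 0.50, edgeR adjusted p = 0.102). Il2ra and Foxp3 were named after their values were seen. Of 4 natural killer cell markers 1 was called higher in IP against PBS and 2 in IV against PBS, with sums of 9.01 to 26.5 CPM in PBS, 24.3 to 27.2 in IP and 18.9 to 71.5 in IV. Of 4 mature dendritic cell markers, 2 were called higher in IP against PBS and 3 in IV against PBS, with sums of 141 to 169 CPM in PBS, 178 to 221 in IP and 140 to 199.98 in IV. Most of each sum was Fscn1 (131 to 143 CPM in PBS and 115 to 133 in IP), while Ccr7, Ccl22 and Cd83 were higher in every IP library than in any PBS library. These 4 genes were named after their values were seen. All 4 neutrophil markers were called higher in IP against PBS and 2 in IV against PBS, with sums of 9.52 to 19.5 CPM in PBS, 105 to 162 in IP and 25.2 to 166 in IV. Of 4 endothelial markers, 2 were called higher in IP against PBS, with sums of 69.9 to 77.7 CPM in PBS, 102 to 121 in IP and 59.1 to 112 in IV. What part these cell markers had in the members' changes was not tested. Leaving out IP 4 and IV 1, the libraries with the most acinar transcripts, gave 6 members called higher in IP against PBS, 4 in IV against PBS and 2 in IP against IV. IP 2, IP 3 and IV 2, which stayed in, also lay above PBS in the sum of those transcripts.

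For each tested member, the 3 genes with the most similar profile were taken from 14257 candidates, by the root mean square difference of centred log2 CPM over the 9 libraries. Tnfrsf9 lay closest to the chemokine genes Ccl4 (0.24) and Ccl2 (0.25) and to Clec7a, the fungal glucan receptor dectin-1 (0.29). Tnfsf4 lay closest to the myeloid lectin receptor gene Clec4n (0.38), Ccl2 (0.48) and Gldc (0.49), an enzyme of glycine breakdown. Cd40 lay closest to the interferon regulatory factor genes Irf7 (0.18) and Irf8 (0.21) and to Slfn1 (0.22). The neighbours of Tnfrsf18 were Gem (0.15), Cd200 (0.17) and Cass4 (0.18), and those of Tnfrsf4 were Htr7 (0.31), Crtam (0.33) and Egr2 (0.33), the last a transcription factor induced by T cell receptor signals. Cd27 lay closest to the T cell surface gene Cd5 (0.17), F2r (0.18) and Arl4c (0.19). Tnfsf9, which was called in no comparison, lay closest to Mxi1 (0.11), Tbx15 (0.13) and Snx16 (0.13), and Cd40lg to Itga2 (0.23), Arl4c (0.29) and Gdf3 (0.29). No other member was among the 3 closest genes of any member. The profiles share the 9 libraries and their group means, and the distances are a description.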

How the data were processed

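RNA was measured in 9 omenta, 3 for each of PBS, IP and IV. Poly(A) selection and a strand-marking kit were used, per the labels' protocols. The submitters' processing notes name STAR 2.7.9, featureCounts, limma and mm39, with no role or order, and the sources used here give neither annotation nor strand setting. The deposited counts are whole numbers for 55359 genes, used as deposited. The authors' table of log2 CPM lists 18833 genes and entered only an alternative. Symbols came from GENCODE M21 (GRCm38), which named 52083 genes, and exon lengths from the same annotation.

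Tests on the counts used edgeR 4.0.16 (R 4.3.3; low counts removed by filterByExpr, 17123 genes left, TMM scaling, 1 robust quasi-likelihood fit of all 9 libraries, no covariates, tests two-sided). The Benjamini-Hochberg adjustment ran over all genes tested, with a threshold of 0.05. SE is the absolute log2 fold change over the square root of F, and fold changes are first group minus second. Alternatives used DESeq2 1.42.0, limma 3.58.1, other filters, only the groups compared, a replicate block, thinned counts, each library left out, and, added after seeing the data, IP 4 and IV 1 left out together. Of the steps used, the edgeR fit was tested on simulated counts, for IP against PBS only.

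The members and lists were chosen with earlier results of these data known. Named genes are the 10 members, the 4 genes with the smallest p in IP against PBS of each pathway list, and the 3 closest profiles of each tested member. Others are said to be named after their values were seen. With groups of 3, the p-values set differences against no wider spread than that between mice. In edgeR that spread is estimated over all 9 libraries and draws on the other genes tested. Leaving out an IP library can therefore move a call of IV against PBS.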

Additional observations from a re-analysis of the deposited data

Results flagged for a closer look

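The effects of the 2 routes against PBS differed by the test of IP against IV for 3 members. For Tnfsf4 (OX40L) the IP effect exceeded the IV effect by 3.59 on the log2 scale (edgeR adjusted p = 0.000223), higher in 3 of 3 IP libraries than in any IV library. For Tnfrsf9 (4-1BB) the difference was 3.16 (edgeR adjusted p = 0.000824), and for Tnfrsf18 (GITR) it was 1.16 (edgeR adjusted p = 0.019), in both again with 3 of 3 IP libraries above every IV library. Such a separation of IP above IV held for 6 of the 8 tested members and for 17.9% of all genes, so it does not set these 3 apart. The difference of Tnfrsf18 did not pass in 5 of 19 alternative settings.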

How the results depend on the processing

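Of 456 fold changes of members recomputed under 19 alternatives, 403 kept their direction and their side of the threshold, 41 lost their call, 5 gained one and 7 changed sign. The number of members called higher in IV against PBS was 5, and became 3 with limma on the deposited log2 CPM, 2 with no filter on low counts and 2 with only the groups compared. With 1 library left out it ran from 1 to 4. The calls of members in IP against PBS other than Cd27 were kept in all 19. Sign changes were seen for Tnfsf9 in IV against PBS (0.15 with thinned counts), for Cd40lg in IP against IV (0.10 with limma voom, 0.47 with thinned counts, -0.57 to 0.52 with 1 library left out) and for Cd27 in IP against IV (-0.55 to 0.14 with 1 library left out). Per CD3 subunit, Tnfrsf9 in IV against PBS turned to 0.0057 with 7 genes in the denominator.

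With 1 library left out, the difference in that ratio ran from -0.51 to 0.061 for Tnfrsf9 (IV against PBS), -0.013 to 0.31 for Tnfrsf18 (IP against PBS), -0.42 to 0.16 for Cd40lg (IP against IV) and -0.49 to 0.018 for Cd70 (IP against PBS). The mean log2 ratio of Cd70 to Cd27, which rests on 0 to 7 Cd70 counts a library, moved from -6.09 to -5.77 (pseudocount 1) and -5.15 (thinned) in PBS, and from -8.31 to -7.51 and -7.34 in IV. The count of all genes called in IV against PBS, 2753, was 1210 with only the groups compared, 1647 without IP 4 and IV 1, and 980 to 4580 with 1 library left out. In IP against IV it was 1780, 2759 with DESeq2, 903 without IP 4 and IV 1, and 673 to 2873 with 1 library left out. On the deposited log2 CPM the median of all genes in IP against PBS lay at -0.14 (0.02 on the counts) and in IP against IV at -0.11 (-0.02). Higher genes then made up 42.7% of the calls in IP against PBS (56.8% on the counts), 54.5% in IV against PBS (64.8%) and 40.8% in IP against IV (57%). The cause of these changes was not tested.

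Mouse numbers are shared between groups, but the labels do not say that they pair mice, and same-numbered libraries deviated together by r between -0.399 and 0.10. With the number as a replicate block, the calls were 6 members higher in IP against PBS, 6 in IV against PBS (Tnfrsf4 added) and 3 in IP against IV, and all genes called in IP against IV fell to 1134.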
